A study of Mus musculus with 6 samples.

Results

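The 10 genes described here encode transcription factors and a coactivator that define and maintain cardiac muscle. They are Gata4, Gata6, Nkx2-5, Tbx5, Tbx20, Hand2, Srf, Myocd, Tead1 and Prox1, chosen by name, and each matched 1 row among the 54532 genes of the deposited table. The samples were 6 myocardium libraries from wild-type C57BL/6 mice of 18 weeks whose hearts, by the title of the series, were studied for cardiac hypertrophy. The control group of 3 libraries had received AAV9-EGFP, an adeno-associated virus of serotype AAV9 carrying enhanced green fluorescent protein. The other 3 had received AAV9-anti-miR-199a TuDs, the same serotype carrying tough decoys (TuDs), hairpin RNAs that hold a microRNA away from its targets. The promoter of the vectors, the dose, the cells reached, the sex of the mice and the way hypertrophy was brought about are not given in the sources used here. The labels do not say whether each library is a separate mouse, so the p-values measure only the spread between these libraries.

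GATA4 and GATA6 are zinc finger factors, NKX2-5 a homeodomain factor, TBX5 and TBX20 T-box factors, and HAND2 a basic helix-loop-helix factor. In the mouse embryo they bind together at enhancers of cardiac genes and are needed to form the heart, and in the adult several of them sustain contractile and conduction genes. SRF, a MADS-box factor, binds the CArG box of muscle and cytoskeletal genes, and myocardin (Myocd) is its muscle-specific coactivator. TEAD1 is the DNA-binding partner of YAP and TAZ, the coactivators that the Hippo pathway holds back, and PROX1 is a homeodomain factor of cardiomyocytes and lymphatic endothelium.

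MicroRNA miR-199a is made as a 5p and a 3p strand, and each pairs with messages mainly through its seed, bases 2 to 8. The mature strands, in RefSeq on mouse build GRCm38.p6, are shown with the seed in capitals because the decoys were directed at this microRNA. They are encoded at 2 loci, on chromosome 1 (162217844 to 162217866 for 5p and 162217883 to 162217904 for 3p, plus strand) and on chromosome 9 (21496537 to 21496559 and 21496498 to 21496519, minus strand).
miR-199a-5p: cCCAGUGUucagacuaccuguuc
miR-199a-3p: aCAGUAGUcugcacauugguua
A match to either seed was found in the longest annotated 3′ UTR of 3 of the 10 members. The matched stretches of Tbx20, Tead1 and Prox1 follow on the strand of the gene, with the letters complementary to the seed, and for Prox1 the A after them, in capitals.
Tbx20, miR-199a-5p, chr9:24724471-24724500, minus strand: cttgtatattaaaacACACTGGgccaaatt
Tead1, miR-199a-3p, chr7:112903786-112903815, plus strand: ggaagcatttctcttACTACTGttactttt
Prox1, miR-199a-5p, chr1:190122799-190122828, minus strand: ggaaaacacttcacACACTGGAataccttg
The Tbx20 and Tead1 matches are 7 bases long and that of Prox1, with its A, is 8. These genes have the longest 3′ UTRs of the members (7314, 8147 and 5185 bases, against a median of 1592.5 over the 10 and 1102 over tested genes). Of 9545 tested genes with an annotated 3′ UTR, 20.8% held such a match. The other 7 members, Gata4, Srf and Myocd among them, held none in this window.

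The libraries held 15.2 to 18.2 M reads (M, megareads, recovered from the deposited FPKM, fragments per kilobase and megaread), and a member had 167 to 4213 reads in a library. Levels below are FPKM divided by a size factor of its library (normalised FPKM), which allows for gene length and so can be set between genes. TuD replicate 3 stood apart within its group. The atrial light chain gene Myl7 was at 90.7 normalised FPKM there against 1.44 and 1.29 in TuD replicates 1 and 2 and at most 0.268 in the controls. The summed FPKM of 4 Y-linked genes was 12.5 in TuD replicate 3 and 8.32 to 9.59 in the controls, but 0.0254 and 0.00711 in TuD replicates 1 and 2. Results of the members are therefore given with and without TuD replicate 3, and the part of these differences in them was not tested. Without it, the group and the Y-linked difference go together in every library, so the effects of these cannot be told apart there. Over all tested genes, the median log2 fold change also ran with gene length, from 0.49 in the shortest decile to -0.17 in the longest, and the members are 1525 to 13570 bases long.

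All 10 factors were expressed well enough to be tested, and 6 of them fell in the TuD group. Gata4, Myocd, Srf, Hand2, Tead1 and Prox1 passed the threshold (limma, Benjamini-Hochberg adjusted p under 0.05 over 10460 tested genes), with TuD means at 40.7% to 62.2% of the control means. Of all tested genes, 29.1% were called, 14.2% lower and 14.8% higher. No member was called higher, in limma or in limma-voom on the recovered reads. Nkx2-5 was the member whose mean was not lower. Every TuD library lay below every control library for 8 members, against 24.4% of all tested genes, and the reverse order, seen for no member, held for 23.5%. The median log2 fold change of the 10 members, which were chosen with earlier results of these data known, was -0.65, against 0.01 over all tested genes. In myocardium, fewer cells that express a gene and less of its RNA per cell cannot be told apart.

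**Figure D1:**
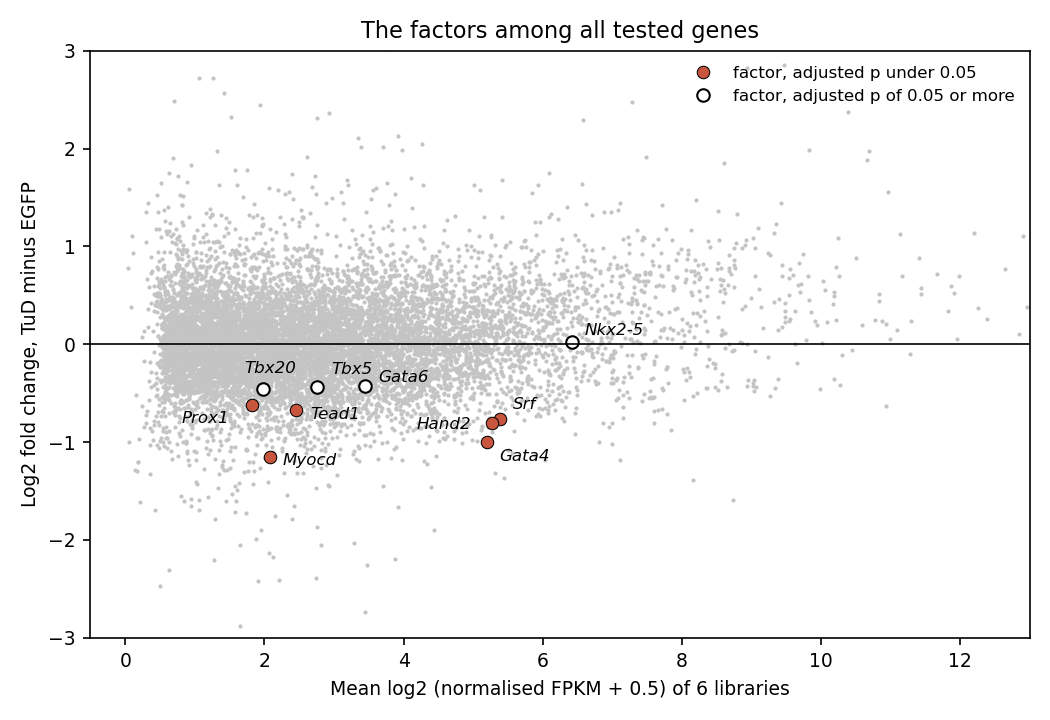
Log2 fold change (TuD minus EGFP) of each tested gene, on the vertical axis, against its mean level as log2 of normalised FPKM plus 0.5, with the 10 members labelled and 8 genes outside the axes. Gata4 and Myocd lie at -1.0 and -1.15, and Nkx2-5 lies at 0.03.

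**Figure D2:**
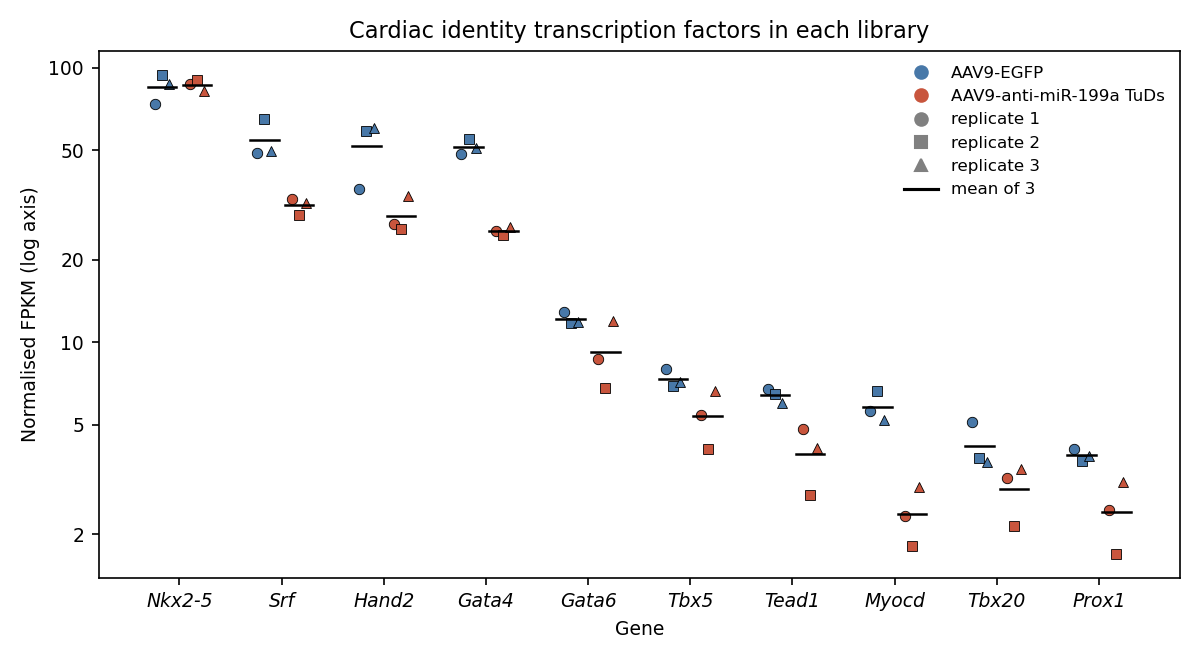
Normalised FPKM of each member (log axis) in the 3 AAV9-EGFP and 3 AAV9-anti-miR-199a TuDs libraries, each point 1 library and each bar the mean. The groups do not overlap for 8 members, and they overlap for Gata6 and Nkx2-5.

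In the control libraries the order of levels, in mean normalised FPKM, was Nkx2-5, Srf, Hand2, Gata4, Gata6, Tbx5, Tead1, Myocd, Tbx20 and Prox1. Nkx2-5, at 85.2 ± 10.5 (SD, n = 3), was above every other member in each library. Srf, Hand2 and Gata4 followed at means of 54.6, 51.8 and 51.5 and overlapped as neighbours, as did Tead1 with Myocd and Tbx20 with Prox1. Gata6 and the rest had means of 12.2 or less. The order in the TuD libraries was the same down to Tead1, and Myocd had moved from eighth place to the last. There Srf overlapped Hand2, Hand2 overlapped Gata4, and from Tbx5 downwards each gene overlapped its neighbour.

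Gata4 (ENSMUSG00000021944, mm10 chromosome 14, 63198922 to 63271692, minus strand), whose product activates cardiac structural genes and takes part in hypertrophic growth, had the smallest adjusted p of the members. Control replicates 1, 2 and 3 were at 48.7, 54.9 and 50.9 normalised FPKM, and TuD replicates 1, 2 and 3 at 25.4, 24.6 and 26.3. The TuD libraries lay within 2 FPKM of each other, and the highest of them was far below the lowest control. The mean fell from 51.5 ± 3.15 to 25.4 ± 0.869 (SD, n = 3 each), 49.4% of the control mean. The log2 fold change was -1.0 ± 0.10 (SE; 95% confidence interval -1.22 to -0.78; limma adjusted p = 0.00191). Of all tested genes, 1.46% fell by at least 1 on the log2 scale and passed the threshold. On the log2 scale TuD replicate 3 by itself, a value of 1 library with no test, lay at -0.95 from the control mean, and TuD replicates 1 and 2 without it gave -1.03 (adjusted p = 0.00171).

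Gata6 (ENSMUSG00000005836, chromosome 18, 11052508 to 11085635, plus strand), which shares targets with Gata4 and can stand in for part of its role in mouse heart, did not pass. It was at 12.9, 11.8 and 11.8 normalised FPKM in the controls, whereas TuD replicates 1, 2 and 3 were at 8.71, 6.83 and 12.0. TuD replicate 3 lay among the controls, and the other TuD libraries were below all of them. The means were 12.2 ± 0.653 and 9.18 ± 2.62 (SD, n = 3 each), with a log2 fold change of -0.42 ± 0.18 (SE; limma adjusted p = 0.113). Without TuD replicate 3 the log2 fold change was -0.63 and passed (adjusted p = 0.0111), and TuD replicate 3 by itself lay at -0.02. The ratio of Gata4 to Gata6 within a library was 3.76, 4.66 and 4.30 in the controls and 2.92, 3.60 and 2.19 in the TuD libraries. All 3 TuD ratios were below the controls (4.24 ± 0.450 against 2.90 ± 0.704, SD, n = 3 each; two-sided exact permutation p = 0.1, the smallest that 3 against 3 allows).

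Nkx2-5 (ENSMUSG00000015579, chromosome 17, 26838664 to 26841565, minus strand) encodes the homeodomain partner of GATA4 and TBX5 and is among the earliest markers of the cardiac lineage. Its normalised FPKM was 73.7, 94.4 and 87.6 in the controls and 87.0, 90.4 and 82.1 in the TuD libraries. The TuD values all lay between the lowest and the highest control. The mean was 86.5 ± 4.17 in the TuD group, 101.5% of the control mean (SD, n = 3). The log2 fold change was 0.03 ± 0.12 (SE; limma adjusted p = 0.877), and its 95% confidence interval ran from -0.25 to 0.30. The sign of this small value turned under 7 of the 21 alternative fits. Without TuD replicate 3 the log2 fold change was 0.07 (adjusted p = 0.728), and TuD replicate 3 by itself lay at -0.05.

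Since the scaling of a library does not enter a ratio of 2 genes within it, each member was also divided by Nkx2-5. The trend with gene length does enter and was not removed from these ratios. Nkx2-5 is the shortest member (1525 bases), in a length decile with a median log2 fold change of 0.27. With that trend removed its own log2 fold change was -0.24 (limma adjusted p = 0.113). The ratio of Gata4 to Nkx2-5 was 0.661, 0.582 and 0.581 in the controls and 0.292, 0.272 and 0.321 in the TuD libraries, so that the groups were well apart. The TuD ratios of Hand2, Srf, Myocd, Tead1 and Prox1 likewise all lay below the control ratios. Mean ratios went from 0.601 to 0.337 for Hand2, from 0.640 to 0.366 for Srf and from 0.0687 to 0.0277 for Myocd. Tead1 went from 0.0762 to 0.0455 and Prox1 from 0.0462 to 0.0282. The ratios of Gata6, Tbx5 and Tbx20 to Nkx2-5 overlapped between the groups. Of 13 ratios computed among members, 8 reached the smallest exact permutation p of 0.1 (0.163 after Benjamini-Hochberg adjustment over the 13), so none could pass.

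**Figure D3:**
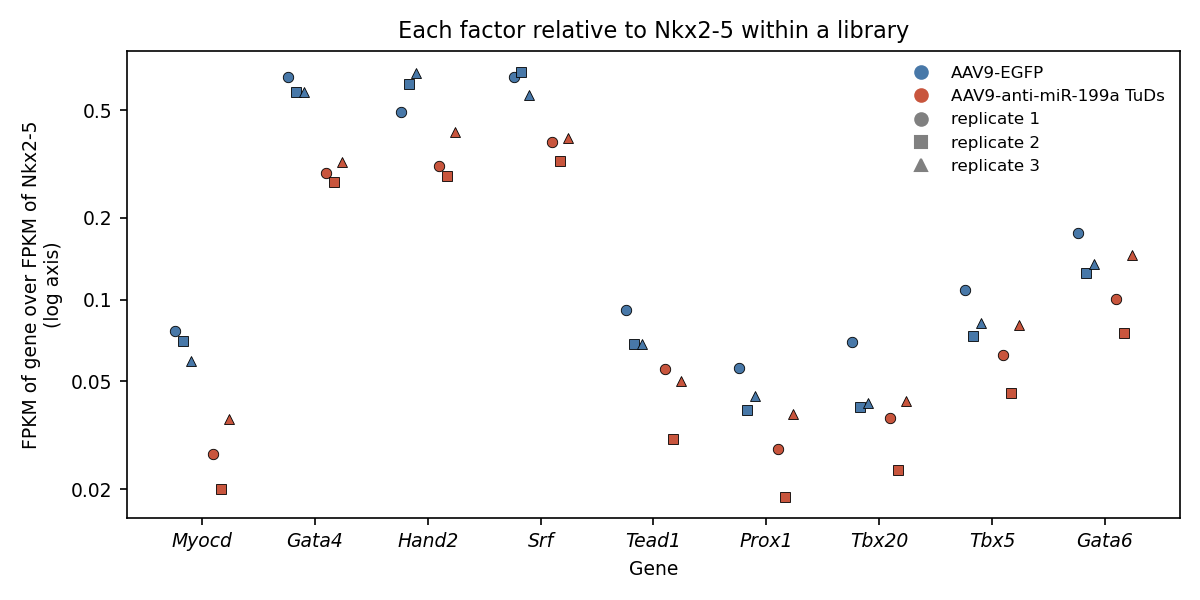
FPKM of each of the other 9 members over FPKM of Nkx2-5 in the same library (log axis), with colour for the group and marker shape for the replicate number. For Gata4 the control ratios are 0.581 or more and the TuD ratios 0.321 or less, and for Gata6, Tbx5 and Tbx20 the groups overlap.

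The T-box members had lower means in the TuD group without passing the threshold. Tbx5 (ENSMUSG00000018263, chromosome 5, 119832668 to 119885219, plus strand), a regulator of atrial and conduction genes mutated in humans with Holt-Oram syndrome, was at 7.99, 6.94 and 7.14 normalised FPKM in the controls and 5.45, 4.10 and 6.63 in the TuD libraries. Its lowest control was just above its highest TuD value, that of replicate 3. The log2 fold change was -0.44 ± 0.16 (SE; limma adjusted p = 0.0773), and it passed without TuD replicate 3 (-0.59, adjusted p = 0.0190). Tbx20 (ENSMUSG00000031965, chromosome 9, 24718138 to 24774303, minus strand), needed for adult mouse cardiomyocyte function, was at 5.12, 3.79 and 3.65 in the controls and 3.19, 2.13 and 3.46 in the TuD libraries. Here too TuD replicates 1 and 3 lay close under the lowest control. The difference, a log2 fold change of -0.46 ± 0.19 (SE; limma adjusted p = 0.0977), did not pass. With the trend with gene length removed it was -0.28 (adjusted p = 0.215), and with those of length and GC content removed it was -0.52 (adjusted p = 0.0359). Without TuD replicate 3 it was -0.57 (adjusted p = 0.0562), and TuD replicate 3 by itself lay at -0.23. The ratio of Tbx5 to Tbx20 averaged 1.78 ± 0.201 for the controls against 1.85 ± 0.120 for the TuD libraries (SD, n = 3 each; exact permutation p = 0.7). The seed match of Tbx20 to miR-199a-5p, printed above, lies in a message whose level did not pass in either direction.

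Hand2 (ENSMUSG00000038193, chromosome 8, 57320983 to 57324633, plus strand) encodes a basic helix-loop-helix factor needed for the right ventricle in the mouse embryo. Normalised FPKM was 36.2, 59.0 and 60.1 in the controls and 27.1, 25.8 and 34.0 in the TuD libraries. Control replicate 1 was far below the other controls and only just above TuD replicate 3. The mean fell from 51.8 ± 13.5 to 29.0 ± 4.45 (SD, n = 3 each), a log2 fold change of -0.80 ± 0.21 (SE; limma adjusted p = 0.0226). The call ended when control replicate 2, control replicate 3, TuD replicate 1 or TuD replicate 2 was left out (adjusted p of 0.0663 to 0.0822). With no filter on low values it ended too (limma adjusted p = 0.0770). TuD replicate 3 by itself lay at -0.56 from the control mean, and without it the log2 fold change was -0.92 (limma adjusted p = 0.0163). The noncoding gene AV026068 overlaps Hand2 by 3251 bases on the opposite strand. It was at 2.73, 2.61 and 2.50 normalised FPKM in the controls and at 4.02, 3.64 and 4.01 in the TuD libraries, the other way from Hand2. The strand setting of the counting is not stated, so reads of such partners cannot be told apart.

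Srf and Myocd both fell. Srf (ENSMUSG00000015605, chromosome 17, 46548329 to 46556175, minus strand) was at 48.9, 65.2 and 49.6 normalised FPKM in the controls and 33.3, 29.2 and 32.3 in the TuD libraries. The TuD libraries were close together and all below the controls. Its mean fell from 54.6 ± 9.21 to 31.6 ± 2.12 (SD, n = 3 each), 57.9% of the control mean, with a log2 fold change of -0.77 ± 0.13 (SE; limma adjusted p = 0.00639).

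Myocd (ENSMUSG00000020542, chromosome 11, 65176561 to 65269989, minus strand) had the lowest log2 fold change of the members. It was at 5.62, 6.65 and 5.21 normalised FPKM in the controls and 2.34, 1.80 and 2.97 in the TuD libraries. Its highest TuD value, in replicate 3, was well under the lowest control. The mean fell from 5.83 ± 0.744 to 2.37 ± 0.586 (SD, n = 3 each), 40.7% of the control mean, with a log2 fold change of -1.15 ± 0.17 (SE; 95% confidence interval -1.54 to -0.77; limma adjusted p = 0.00393). The ratio of Srf to Myocd was 8.70, 9.80 and 9.53 in the controls and 14.2, 16.2 and 10.9 in the TuD libraries, so the coactivator was lower relative to its factor in each TuD library (exact permutation p = 0.1). TuD replicate 3 by itself lay at -0.74 for Srf and -0.86 for Myocd. Without it the log2 fold changes were -0.78 (adjusted p = 0.00867) and -1.30 (adjusted p = 0.00219).

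The Srf promoter is printed because SRF is known to bind CArG boxes at its own gene. The window is RefSeq's for GRCm38.p6, chr17:46556113-46556412, minus strand. Capitals mark the CArG boxes found by a search of both strands for the CArG consensus and a match to the NKX core motif AAGTG.
Srf promoter: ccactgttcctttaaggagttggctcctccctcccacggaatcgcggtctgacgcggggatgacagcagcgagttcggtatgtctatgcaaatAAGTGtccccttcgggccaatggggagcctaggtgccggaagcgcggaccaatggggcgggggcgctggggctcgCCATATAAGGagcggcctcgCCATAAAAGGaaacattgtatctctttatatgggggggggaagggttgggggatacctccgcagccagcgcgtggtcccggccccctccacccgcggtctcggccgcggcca
It holds 2 CArG boxes, which do not overlap. Of 32851 promoters of the same length, 1.63% held a CArG box on either strand, and of the 5 members with a promoter in the RefSeq table (Srf, Nkx2-5, Hand2, Tbx20 and Prox1) Srf was the only one. AAGTG, present in 46.4% of promoters, occurred in those of Srf, Hand2 and Prox1. The GATA motif AGATAA, in 11.2% of promoters, occurred in that of Hand2. Neither the T-box motif AGGTGT (13.7%) nor the TEAD motif CATTCC (14.7%) was found in these 5, and a match or its absence in these letters does not show binding.

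Tead1 (ENSMUSG00000055320, chromosome 7, 112679318 to 112906807, plus strand) was at 6.76, 6.46 and 6.01 normalised FPKM in the controls and 4.83, 2.78 and 4.12 in the TuD libraries. The groups did not overlap, and TuD replicate 2 was the lowest. The mean fell from 6.41 ± 0.375 to 3.91 ± 1.04 (SD, n = 3 each), a log2 fold change of -0.68 ± 0.18 (SE; limma adjusted p = 0.0243). The call ended when any control was left out (adjusted p of 0.0546 to 0.0731) and with no filter on low values (limma adjusted p = 0.0777). TuD replicate 3 by itself lay at -0.58 from the control mean, and without it the log2 fold change was -0.72 (limma adjusted p = 0.0282). The 3′ UTR of Tead1 holds the miR-199a-3p seed match printed above.

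Prox1 (ENSMUSG00000010175, chromosome 1, 190118035 to 190170714, minus strand), which in mouse heart holds down fast skeletal muscle genes, was at 4.10, 3.68 and 3.85 normalised FPKM in the controls and 2.45, 1.70 and 3.09 in the TuD libraries. Its controls were tightly grouped and all above the TuD libraries. The mean fell from 3.88 ± 0.212 to 2.41 ± 0.700 (SD, n = 3 each), a log2 fold change of -0.62 ± 0.18 (SE; limma adjusted p = 0.0345). Of the calls this was the weakest. It ended without any of the controls or without TuD replicate 1 or 2 (adjusted p of 0.0648 to 0.0938) and with the length trend removed (-0.46, adjusted p = 0.0691). The call also ended with no filter on low values (limma adjusted p = 0.103). TuD replicate 3 by itself lay at -0.28 from the control mean, and without it the log2 fold change was -0.78 (limma adjusted p = 0.00929). Markers of lymphatic endothelium, the other cardiac source of Prox1, summed to 22.2 to 24.8 normalised FPKM in the controls and to 41.9, 76.1 and 19.7 in TuD replicates 1, 2 and 3. Most of that difference was Ccl21a, a chemokine gene, at 27.1, 59.0 and 2.84 in the TuD libraries, and without it the sums were 12.8 to 15.2 in the controls and 14.8 to 16.9 in the TuD group. Their part in the Prox1 level was not tested. Prox1os, which overlaps Prox1 by 419 bases on the opposite strand, had means of 1.11 ± 0.254 and 1.32 ± 0.539 (SD, n = 3 each; adjusted p = 0.699).

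Across the members, TuD replicate 2 held the lowest TuD value of 9 genes and TuD replicate 3 the highest of 7. The median log2 deviation of the 10 from their control means was -0.51, -0.92 and -0.42 in TuD replicates 1, 2 and 3. In the controls it was 0.02, 0.05 and -0.04. Leaving out TuD replicate 3 raised the number of members called lower from 6 to 8, with Gata6 and Tbx5 added. In that comparison the group cannot be told apart from the Y-linked difference. TuD replicate 3 by itself lay at -0.02 for Gata6 and -0.14 for Tbx5. With a covariate for the Y-linked transcripts limma called 3, namely Gata4, Myocd and Srf. In that fit the TuD group rests on replicate 3, and the error comes from the spread of the other libraries, to which that 1 library is assumed to conform. These 3 passed under all 21 alternative fits, the covariate among them, Tead1 under 16, Hand2 under 15 and Prox1 under 12 of 20.

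**Figure D4:**
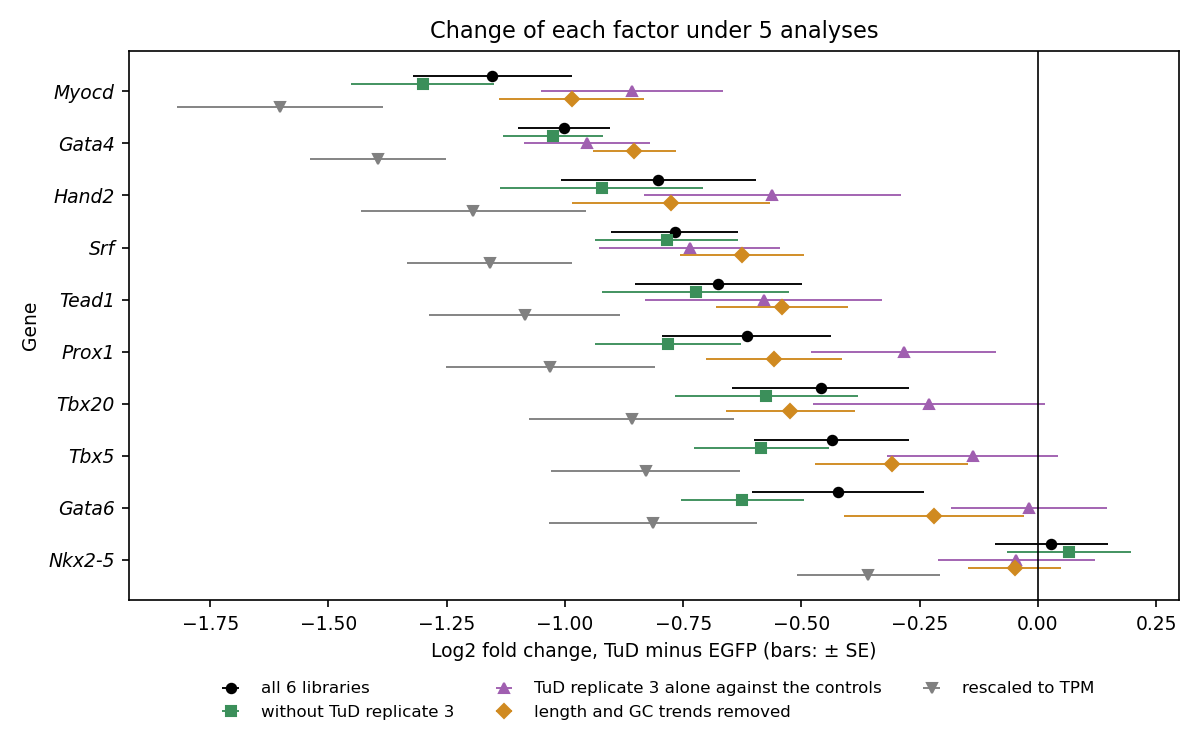
Log2 fold change of each member (points, bars ± SE) with all 6 libraries, without TuD replicate 3, with TuD replicate 3 alone against the controls (SE from the spread of the other libraries), with length and GC trends removed, and rescaled to TPM. Gata4, Myocd and Srf lie between -1.60 and -0.63 in all of these, whereas Nkx2-5 lies near 0 except after TPM rescaling (-0.36), which moves the median of all tested genes by about as much.

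Of 27 other cardiac factors and cofactors on a list 20 were tested, of which 4 fell and 1 rose (11 and 0 after TPM rescaling), and their median log2 fold change was -0.15. Smyd1, a muscle methyltransferase whose loss blocks ventricular growth in the mouse embryo, fell from 181 ± 15.4 to 89.5 ± 11.4 normalised FPKM (SD, n = 3 each; log2 fold change -1.02, limma adjusted p = 0.00258). Mef2d, a MADS-box factor like SRF, fell from 35.4 ± 3.36 to 18.9 ± 1.42 (-0.89, adjusted p = 0.00258), whereas its relative Mef2a rose from 4.10 to 6.18 (0.54, adjusted p = 0.0354). The Mef2a call ended after TPM rescaling (adjusted p = 0.403) and when any library but control replicate 1 and TuD replicate 2 was left out (adjusted p of 0.0706 to 0.120). The ventricular homeobox gene Irx4 fell (-0.70, adjusted p = 0.00508), as did Zfpm1, which encodes a GATA cofactor (-0.51, adjusted p = 0.0131; 0.0540 without control replicate 2). The other T-box factors tested, Tbx2 and Tbx3, and the other TEAD genes, Tead2, Tead3 and Tead4, did not pass. Among 533 other annotated transcription factors tested, a list looked at after the files were seen, 17.4% were called lower.

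**Figure D5:**
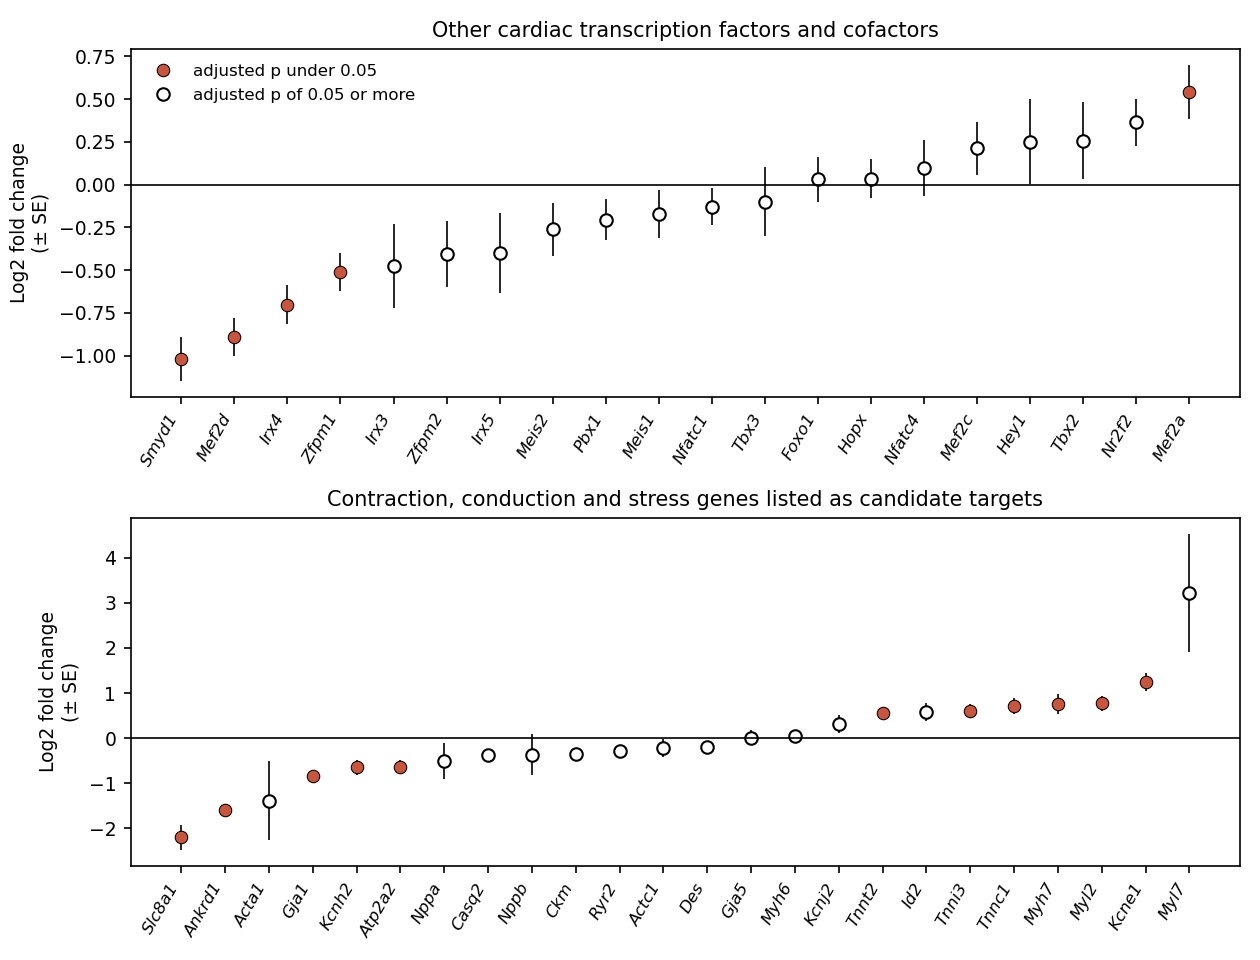
Log2 fold change (points, bars ± SE) of the tested genes of the list of other cardiac factors and cofactors (top) and of the list of contraction, conduction and stress genes (bottom), filled where the limma adjusted p was under 0.05. Smyd1 and Mef2d lead the lower end of the upper panel, and Slc8a1 at -2.20 leads that of the lower panel.

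Partners of SRF and TEAD1 were tested for 16 of 18 genes, of which 3 fell and 2 rose. Vgll4, which competes with YAP for TEAD factors, fell from 4.15 ± 0.317 to 2.57 ± 0.115 normalised FPKM (SD, n = 3 each; -0.60, limma adjusted p = 0.0075). Of the SRF partners of the ETS family, Elk3 and Elk4 rose and Elk1 fell. Elk3 had a log2 fold change of 0.62 (limma adjusted p = 0.00607, and 0.108 after TPM rescaling). Elk4 went from 2.38 ± 0.469 to 4.46 ± 1.34 normalised FPKM (SD, n = 3 each), a log2 fold change of 0.76 (limma adjusted p = 0.0261). That of Elk1 was -0.72 (limma adjusted p = 0.0306, and up to 0.0943 with a library left out). The list stood at 7 lower and 0 higher after TPM rescaling, and at 1 to 4 lower and 1 to 2 higher with a library left out. Of 9 TEAD and YAP target genes 2 fell, Ankrd1 from 740 to 247 (-1.59, adjusted p = 0.00163) and Crim1 from 5.91 to 3.44 (-0.70, adjusted p = 0.0109), and their median was -0.25 (5 lower after TPM rescaling).

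Known or candidate targets moved in both directions. Of 15 tested smooth muscle and cytoskeletal targets of SRF and myocardin, 2 fell and the median was 0.04. Without TuD replicate 3 the list had 1 lower, 3 higher and a median of 0.21, and without TuD replicate 2 it had 3 lower and a median of -0.12. Vcl, the vinculin gene, was at 9.56, 9.40 and 8.82 normalised FPKM in the controls and 2.02, 1.83 and 3.35 in the TuD libraries (-1.79 ± 0.19, SE; limma adjusted p = 0.00191), with every TuD library far below the controls. Of the immediate early targets of SRF 6 of 9 were tested, and Srf itself, which is on that list, was the gene that fell. Their median of -0.93 was -0.48 without control replicate 1, where Fos was at 30.1 normalised FPKM against 3.24 and 2.94 in the other controls. Of 24 contraction, conduction and stress genes listed as candidate targets of the members, 5 fell and 6 rose, with a median of -0.20. The counts were 3 lower and 1 higher without control replicate 2, 3 and 3 without control replicate 1, and 4 and 3 without control replicate 3. Without TuD replicate 2 they were 3 lower and 6 higher, and without TuD replicate 3 the median was 0.0033. Those that fell included the sodium-calcium exchanger gene Slc8a1 (-2.20, adjusted p = 0.00258) and the gap junction gene Gja1 (-0.84, adjusted p = 0.00347). Those that rose included the sarcomere genes Myl2 (0.77, adjusted p = 0.0144) and Tnnt2 (0.56, adjusted p = 0.0134). Counted with them is the potassium channel subunit gene Kcne1, at 0.525, 0.617 and 0.788 normalised FPKM in the controls and 1.71, 3.02 and 2.04 in the TuD libraries, which met the minimum level through the TuD group alone. After quantile normalization the split was 9 lower and 1 higher, and after TPM rescaling 10 lower and 2 higher. Of the fast skeletal genes that PROX1 holds down in mouse heart, 2 of 5 were tested. Myl1 did not pass (0.15, adjusted p = 0.618). Tnni2 measured 0.529, 0.340 and 0.352 normalised FPKM over the controls against 2.01, 1.58 and 1.12 over the TuD libraries, and since it met the minimum level through the TuD group alone, no test is given for it.

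Markers of cell types were also read as lists, which do not show which cells hold the members' RNA. Of 8 cardiomyocyte markers 3 rose, Tnnt2, Myl2 and Tnni3, and 5 did not pass. Of those that did not pass, Mybpc3 (-0.36, limma adjusted p = 0.0552), Ryr2 (-0.28) and Actc1 (-0.21) had lower means. Ttn (0.27) and Myh6 (0.05) had higher ones. The calls of the 3 that rose all ended after TPM or quantile scaling, with no filter on low values and without control replicate 2. The list stood at 3 lower and 0 higher after TPM rescaling, and at 2 and 0 after quantile normalization. Without TuD replicate 3 it stood at 2 lower and 3 higher. Their summed level ran from 24695 to 25851 normalised FPKM over the controls and from 25766 to 32036 over the TuD libraries. Of 7 fibroblast markers 3 rose, Tcf21 and Lum among them, whereas Col1a1 (-0.61, adjusted p = 0.0657) and Col3a1 (-0.71, adjusted p = 0.0903) had lower means without passing. The split was 2 lower and 0 higher after TPM rescaling, 2 and 2 without TuD replicate 2, and 1 higher without any of the controls. The sums were 182 to 191 and 196 to 249. Of 5 endothelial markers Egfl7 rose (0.85, limma adjusted p = 0.00823), with sums of 174 to 212 and 165 to 243. Of 6 smooth muscle and pericyte markers, cells that also use Srf and Myocd, Rgs5 (1.01, adjusted p = 0.00605) and Kcnj8 (0.60, adjusted p = 0.0246) rose, with 3 higher without TuD replicate 3 and 1, Rgs5, without any of the controls or TuD replicate 1, and with sums of 143 to 187 in the controls and 251, 277 and 147 in TuD replicates 1, 2 and 3. Epicardial sums were 1.16 to 1.5 and 1.30 to 1.82, macrophage sums 84.9 to 101 and 92.7 to 172, and the atrial list 121 to 370 and 155 to 214. The tested lymphatic (5), macrophage (5) and epicardial (1) markers did not pass in limma, and 1, 1 and 0 of them had an unadjusted p under 0.05. Limma-voom called 1 lymphatic and 1 macrophage marker higher. Of the 2 atrial markers tested, Nppa did not pass (-0.51, limma adjusted p = 0.368). Myl7, the other, met the minimum level through the TuD group alone, so no test is given for it. The part of cell makeup in the members' levels was not tested.

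The genes whose pattern over the 6 libraries was most like that of Gata4, by the root mean square difference of centred log2 values over 10450 genes, were Mink1 (0.0630), Osbp2 (0.0651) and Inpp5e (0.0676), against a median of 0.536 over all genes. Mink1 was at 9.17, 10.9 and 9.87 normalised FPKM in the controls and 5.15, 4.89 and 5.47 in the TuD libraries. As for Gata4, the groups lay well apart and control replicate 2 was the highest, which follows from choosing Mink1 by its likeness to Gata4.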

How the data were processed

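Total RNA of 6 myocardium samples was made into libraries with an NEBNext Ultra kit, per the labels' protocols. HISAT2 2.0.5, featureCounts 1.5.0-p3 and mm10 are named in the submitters' processing notes, and the annotation release and strand setting are not given in the sources used here. The deposited values are FPKM per gene, made by the authors. FPKM times gene length came to a whole read (tolerance 0.05) in 100% of values above 0. The deposited identifiers were looked up in GENCODE M21 (GRCm38), which held 54495 of 54532.

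FPKM was divided by median-of-ratios size factors. Genes with FPKM of at least 1 in at least 3 libraries (10460) were tested with limma 3.58.1 in R 4.3.3 (lmFit, eBayes with a trend) on log2(normalised FPKM + 0.5), two-sided, adjusted over all of them; a fold on this scale understates the change of low genes. Single values had exact permutation tests. Alternatives were other scalings, pseudocounts, filters and variance models, limma-voom, a replicate block, length and GC trends (lowess span 0.3), a Y-linked covariate and leaving out each library. The fit was checked on simulated data.

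Seed matches were searched in the longest GENCODE M21 3′ UTR of a gene. MicroRNA and promoter sequences are RefSeq's, and both miRNA strands and 5 of 10 members matched those tables.

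The members and lists were chosen with earlier results of these data known. Named genes are the members, up to 4 genes of each list by p, the 3 genes nearest to the member with the smallest adjusted p, and opposite-strand partners. Mef2a, Elk1, Ccl21a, AV026068, Myl7 and genes named only as not passing were chosen after their values were seen. 1 gene of the contraction, conduction and stress list is not reported here.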

Additional observations from a re-analysis of the deposited data

How the results depend on the processing

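Gata4, Srf and Myocd kept direction and call under all 21 alternative fits; the exact permutation test cannot go below 0.1 with 3 against 3. The number of members called lower, 6, was 3 with no filter on low values, 3 with the Y-linked covariate and 3 to 8 when a library was left out. Over all genes, 1550 were higher and 1489 lower. The number higher was 438 after TPM rescaling, 989 with no filter, 953 with length and GC trends removed, 638 with the Y-linked covariate and 888 to 1703 when a library was left out. The number lower was 4202, 947 and 543 for TPM rescaling, no filter and the covariate, and 742 to 1598 when a library was left out. After TPM rescaling the median over tested genes was -0.36. The covariate leaves TuD replicate 3 as the only basis of the estimate, with the spread taken from the other libraries. Leaving out any library takes away residual degrees of freedom. Without TuD replicate 3 the number of members called lower and both counts over all genes rose. The causes of these changes were not tested.

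The log2 fold change of Nkx2-5 turned to -0.36 (TPM), -0.16 (quantile), -0.24 (length), -0.0489 (length and GC) and -0.0458 (covariate), and ran from -0.0722 to 0.11 with a library left out. That of Prox1os turned to -0.17 (TPM), -0.30 (length) and -0.26 (length and GC), and ran from -0.0377 to 0.41. In deviations from their group means, same-numbered control and TuD libraries correlated at 0.0640, 0.0885 and -0.0555. Differently numbered ones correlated at -0.161 to 0.0936, so no pairing by number was seen. Deviations from a mean of 3 libraries cannot show that there was none. With the replicate number as a block 6 members were lower, and over all genes 1447 were higher and 1195 lower. Depth, 167 reads or more for a member in a library, limits Myocd and Prox1 most.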
